A study of Sus scrofa with 120 samples.

Results

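Pig articular chondrocytes that had received siRNA against the stretch-activated channel PIEZO1 were compared with and without a large, slow compression, 9 h after the stimulus began. The comparison was defined by the sample titles: 4 libraries of siPIEZO1 constructs that were compressed and 4 libraries of siPIEZO1 constructs that were given vehicle, 8 of the 120 libraries in the series. Primary chondrocytes from porcine femoral cartilage had been transfected and cast in 2% agarose, a cartilage tissue-engineering format in which the cells sit in a hydrogel. Compressed constructs were deformed to 80%, slowly and once, at 1.9% per min, a range the submitters call supraphysiologic. Vehicle constructs stood unloaded in medium with DMSO, and the labels do not say whether the compressed constructs also received DMSO. All 8 libraries therefore carried the PIEZO1 siRNA and differed by loading and possibly by DMSO. The same design was run in cells with a non-targeting siRNA (siNTC) and in cells left non-transfected (NT), with a further arm of the PIEZO1 agonist Yoda1, and at 3 h as well as 9 h, with 4 libraries in each group. The labels speak of separate constructs but do not tie them to different animals or cell isolations, so p-values here reflect the spread among these libraries alone, which may be technical.

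PIEZO1 is a large membrane channel that opens when the membrane is stretched and lets calcium and other cations into the cell. In chondrocytes it is known for responding to large, injurious strains, whereas TRPV4 is linked to moderate, physiologic loading. Calcium entry can act on calcineurin, kinases and the actin cytoskeleton, and through them on gene expression, and chondrocytes also sense load through other channels, integrins and growth factors released from the matrix.

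The 3 siRNAs that define the cells are shown because every library here carries them. They were given as a mix directed, per the labels, at different PIEZO1 transcript variants, and only the strand listed in the labels is printed.
siPIEZO1a: cagcgagaucucgcacuccauc
siPIEZO1b: uacgaccugcugcagcuccug
siPIEZO1c: acccgcuggccaugcaguucuu

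siPIEZO1a was used at about 222 nM, and siPIEZO1b and siPIEZO1c at about 278 nM each. The listed strands are 21 to 22 nt long, with 59.1% to 61.9% of their bases G or C.

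The 8 libraries held 36807992 to 56806582 gene counts. Summed levels of 12 chondrocyte markers, including the collagen II gene COL2A1 and the aggrecan gene ACAN, were 11364 to 12739 CPM (gene counts scaled to a common library total) in vehicle and 12241 to 13850 in compressed libraries, and none was at 0. Those of 12 fibroblast markers were 1463 to 1676 and 1354 to 1599 CPM. Leukocyte markers summed to 19.5 to 56.5 CPM in vehicle and 50.4 to 58.3 in compressed libraries, with 10 of 12 under 1 CPM, LYZ at 0 in all 8, and most of the sum from CD14. Endothelial and mural markers summed to 17.2 to 20.9 and 13.8 to 20.3 CPM, and adipocyte and erythroid markers to 4.47 to 7.97 and 4.41 to 8.37 CPM. Vehicle replicate 4 stood apart. On the first principal component of the 8 libraries, which held 44.4% of the variance, it lay at -30.5, the other vehicle libraries at -6.94 to -1.86 and the compressed libraries at 8.41 to 12.6. It was also the shallowest library, and the share of its counts in cytosolic ribosomal protein genes was the highest of the 8, 10.4%. CD14 was at 15.1 CPM in it and at 41.7 to 54.0 CPM in the other 7. Results are therefore also given without it where it matters.

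PIEZO1 itself (chromosome 6: 914480 to 967113, Sscrofa11.1) was low, with 104 to 269 counts per library. It stood at 2.24, 4.25, 4.52 and 2.80 CPM in vehicle and at 4.09, 3.97, 4.73 and 5.91 CPM in compressed libraries, and the groups overlapped. The log2 fold change of compressed over vehicle was 0.43 ± 0.23 (SE; edgeR adjusted p = 0.478). The knockdown did not pass the test at the mRNA level in either arm, although the labels say that the time was chosen for peak knockdown. In compressed constructs PIEZO1 was at 6.72, 7.31, 8.79 and 5.53 CPM with siNTC, and the log2 fold change of siPIEZO1 over siNTC was -0.60 ± 0.23 (edgeR adjusted p = 0.134). In vehicle constructs it was -0.66 ± 0.23 (edgeR adjusted p = 0.0619). The vehicle value passed the threshold by DESeq2 (adjusted p = 0.0295) and on leaving out siPIEZO1 vehicle replicate 3 (0.0331) or siNTC vehicle replicate 4 (0.0361). PIEZO1 protein was not measured. PIEZO2, the sister channel, changed by -0.13 ± 0.22 on the log2 scale with compression (edgeR adjusted p = 0.901). TRPV4 stood at 387, 369, 378 and 319 CPM in vehicle and 395, 419, 468 and 438 CPM in compressed libraries. Its groups did not overlap, but its log2 fold change of 0.24 ± 0.13 missed the threshold (edgeR adjusted p = 0.486).

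Compression of siPIEZO1 cells was followed at 9 h by more and larger rises than falls. Of 18611 genes tested, 405 were called at an edgeR adjusted p under 0.05, 2.18%. These were 250 higher genes (1.34%) and 155 lower genes (0.833%), and 2280 genes had an unadjusted p under 0.05. Rises reached at least 2-fold in 114 genes and had a median log2 fold change of 0.95. Falls had a median of -0.40, and only 14 of them reached 2-fold. The median CPM over the 8 libraries, which also rises with transcript length, was 92.3 for the called lower genes, 20.8 for the called higher genes and 4.14 for all genes tested. The 4 compressed and 4 vehicle libraries did not overlap for 243 of the 250 and 147 of the 155, against 8.37% of all genes tested. Without vehicle replicate 4, 194 genes were called, 153 higher and 41 lower. Of the original calls 145 of 250 rises and 37 of 155 falls passed again, and all 405 kept their direction. Without compressed replicate 2 the total was 222, 169 higher and 53 lower. DESeq2 called 694 genes, of which 49.9% were higher, against 61.7% in edgeR.

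**Figure D1:**
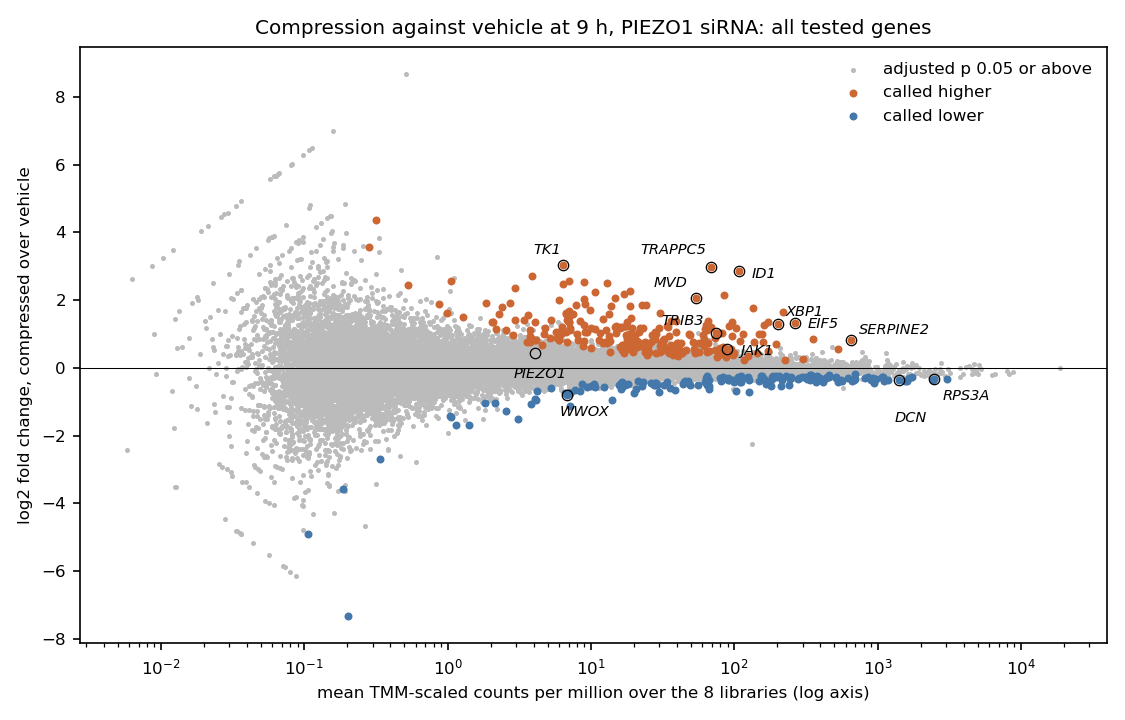
Log2 fold change of compressed over vehicle (vertical axis) against the mean TMM-scaled CPM of the 8 libraries (horizontal log axis) for each of the 18611 genes tested; coloured points are the 250 genes called higher and the 155 called lower. The rises spread up to about 3 log2 units while most falls lie within 1 log2 unit of 0 and toward the right, at higher CPM.

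The largest rises encoded proteins of different kinds, and most of them stood at a few CPM without load. ID1 (chromosome 17: 35316518 to 35317742) encodes an inhibitor of basic helix-loop-helix transcription factors and is a classic BMP target. It stood at 27.8, 22.4, 32.0 and 23.4 CPM in vehicle and at 164, 244, 177 and 175 CPM in compressed libraries. The lowest compressed library was far above the highest vehicle library, and the log2 fold change was 2.85 ± 0.22 (edgeR adjusted p = 1.02e-10). TRAPPC5 (chromosome 2: 71470441 to 71472614), a subunit of the TRAPP complexes that tether transport vesicles, went from 14.4, 14.3, 17.6 and 15.4 CPM to 96.9, 173, 104 and 113 CPM. Its log2 fold change was 2.98 ± 0.28 (edgeR adjusted p = 3.18e-09). TK1 (chromosome 12: 3785997 to 3794824), the thymidine kinase of the nucleotide salvage pathway, went from 1.46, 0.842, 1.12 and 2.08 CPM to 9.19, 14.1, 11.15 and 10.98 CPM. Its log2 fold change, 3.05 ± 0.42 (edgeR adjusted p = 8.04e-06), was the largest among the genes that met the naming rule. For these 3 genes no compressed library came near the vehicle range.

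Another 8 of the 12 largest rises lay between 2.14 and 2.70 on the log2 scale. STARD10, a lipid transfer protein, went from 1.61, 0.901, 1.02 and 0.620 CPM to 6.39, 5.48, 6.77 and 8.51 CPM, a log2 fold change of 2.70 ± 0.36. No compressed library was near the vehicle range, and vehicle replicate 4 was the lowest of the 8. EHD2, an ATPase that sits at the neck of caveolae, the membrane pits that flatten under tension, went from 32.1, 31.7, 39.9 and 22.6 CPM to 95.5, 171, 155 and 137 CPM. Its log2 fold change was 2.14 ± 0.23 (edgeR adjusted p = 5.26e-08). SIVA1, a proapoptotic protein, changed by 2.56 on the log2 scale and ADRM1, a ubiquitin receptor of the proteasome, by 2.51. PRKCZ, an atypical protein kinase C, changed by 2.48, RAB5IF by 2.28, TMEM47 by 2.24 and DOHH, an enzyme of the hypusine modification of the translation factor eIF5A, by 2.19. All 11 of these genes stayed called without vehicle replicate 4, with adjusted p of at most 0.000704.

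**Figure D2:**
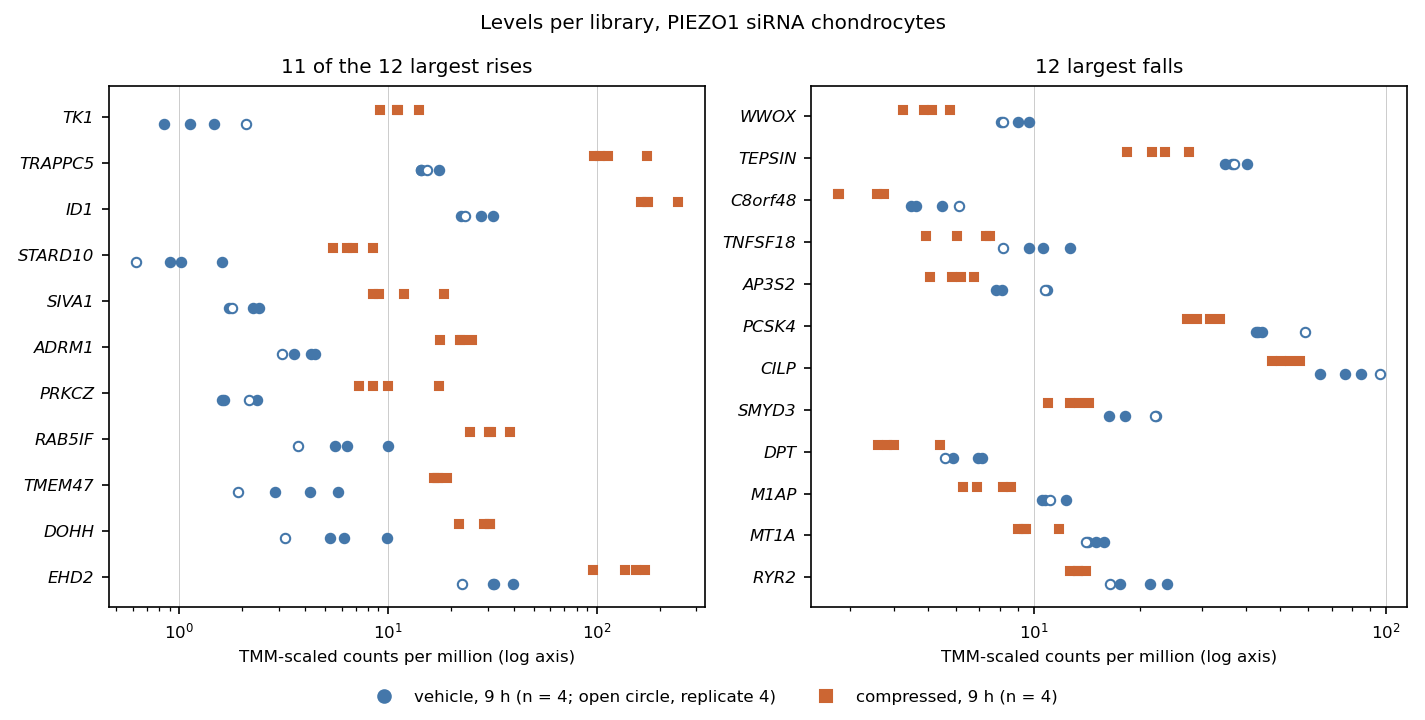
TMM-scaled CPM (log axis) in each of the 4 vehicle and 4 compressed libraries for 11 of the 12 largest rises and for the 12 largest falls; each point is a library. The naming rule took only genes whose groups do not overlap. The compressed points of the rises lie far from the vehicle points, as for ID1 (164 to 244 against 22.4 to 32.0 CPM). Those of the falls lie close beside them, as for CILP (47.4 to 57.0 against 64.9 to 95.9 CPM).

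Several abundant regulatory genes rose by smaller factors. XBP1 (chromosome 14: 46011239 to 46016526), a transcription factor of the unfolded protein response, stood at 116, 120, 118 and 114 CPM in vehicle and at 264, 370, 259 and 246 CPM in compressed libraries, a log2 fold change of 1.28 ± 0.11 (edgeR adjusted p = 1.99e-09). EIF5, a translation initiation factor that sets start codon choice, went from 149, 155, 170 and 138 CPM to 350, 475, 356 and 338 CPM, a log2 fold change of 1.31 ± 0.12. In both genes compressed replicate 2 was the highest library. JAK1 (chromosome 6: 147320288 to 147567188), a kinase bound to cytokine receptors, went from 68.5, 71.3, 77.2 and 72.8 CPM to 104, 109, 109 and 106 CPM, a tight rise of 0.56 ± 0.08 on the log2 scale (edgeR adjusted p = 6.31e-06). SPINT2, a membrane-bound inhibitor of serine proteases, changed by 1.18 ± 0.12 and NOL7, a nucleolar protein, by 0.93 ± 0.09. SPART, which acts in lipid droplet and endosome turnover, changed by 0.85 ± 0.10. All 6 kept their calls without vehicle replicate 4, with adjusted p of at most 4.26e-05.

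Falls that met the naming rule were shallower. WWOX, an oxidoreductase known as a tumour suppressor, stood at 9.02, 8.05, 9.66 and 8.17 CPM in vehicle and at 4.25, 4.89, 5.79 and 5.14 CPM in compressed libraries, a log2 fold change of -0.80 ± 0.17 (edgeR adjusted p = 0.00533). TEPSIN, an accessory protein of the AP-4 vesicle coat, went from 36.4, 34.8, 40.3 and 37.1 CPM to 21.6, 18.4, 27.6 and 23.5 CPM, a log2 fold change of -0.71 ± 0.15. RYR2, a calcium release channel of the endoplasmic reticulum, went from 23.8, 17.5, 21.3 and 16.5 CPM to 14.1, 13.3, 13.3 and 12.7 CPM, a log2 fold change of -0.57 ± 0.15 (edgeR adjusted p = 0.0376). The groups did not overlap in any of the 3, which the naming rule requires. The other 9 of the 12 largest falls lay between -0.68 and -0.58 and included TNFSF18, a ligand of the TNF family (-0.67), SMYD3, a lysine methyltransferase (-0.61), the matrix protein gene DPT (-0.61) and the metallothionein MT1A (-0.58). C8orf48, AP3S2, CILP and M1AP lost their calls without vehicle replicate 4, with adjusted p between 0.117 and 0.176. Without compressed replicate 2 those 4 and also TNFSF18, DPT and RYR2 lost theirs. MT1A belongs to a family of near-identical genes, so its counts are uncertain.

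Calls in the lists of channels, early response genes and cytoskeletal genes were 1 to 3 each, against 2.18% of all genes tested. Their shares ran from 3.7% of the immediate early genes to 15% of the SRF and actin genes. Among 26 tested mechanosensitive and calcium channels 1 was called higher: KCNN4, a potassium channel gated by calcium, at 3.19, 4.39, 3.21 and 4.26 CPM in vehicle and 10.1, 14.7, 10.7 and 9.93 CPM in compressed libraries. The list's median log2 fold change was 0.08, against 0.02 over all genes tested. Without vehicle replicate 4 the list's median was 0.0, and 13 of the 26 were negative. Of 27 immediate early genes IER2 rose, from 5.05, 4.86, 7.54 and 3.58 CPM to 10.5, 11.3, 12.6 and 16.7 CPM. FOS was at a log2 fold change of -0.06 without a call in edgeR. JUN and EGR4 held the highest and lowest values of the list, 2.22 and -1.80. Neither was called in edgeR, so those sizes are uncertain. Of the 27, 19 were positive, with a median of 0.10, and DESeq2 called 2 higher. Without vehicle replicate 4 that lean was gone: 14 of the 27 were negative, with a median of -0.04. Of 16 ERK feedback genes PHLDA1 rose, from 104, 111, 176 and 30.5 CPM to 276, 343, 345 and 354 CPM, with vehicle replicate 4 far below the other vehicle libraries. The other 26 early response and 15 feedback genes tested were not called by edgeR. RCAN1, a feedback inhibitor of calcineurin and a known read-out of calcium and NFAT activity, was lower, at 273, 260, 292 and 258 CPM in vehicle and 238, 213, 217 and 231 CPM in compressed libraries (log2 fold change -0.27 ± 0.07), and was the only call among 15 calcium and CREB responsive genes. Of 20 SRF and actin genes, 1 was higher, the focal adhesion gene ZYX (0.69 ± 0.18), and 2 were lower, TAGLN (-0.50 ± 0.10) and TPM1 (-0.27 ± 0.08). The median was -0.18. Of 18 YAP-TAZ genes CCN2, which encodes connective tissue growth factor, fell by 0.36 on the log2 scale. CCN1 and AMOTL2 were at -0.12 and 0.38 without a call. Of the 18, 10 were positive, with a median of 0.05. Without vehicle replicate 4, 10 of the 18 were negative, with a median of -0.07. RCAN1, ZYX and TPM1 lost their calls without vehicle replicate 4, with adjusted p = 0.0689, 0.157 and 0.192, and without compressed replicate 2, as did CCN2 without the latter.

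Ligand and receptor pathways each had 1 to 3 calls, from 3.57% of the WNT genes to 16.7% of the IL-6 family and STAT3 genes, against 2.18% of all genes tested. Of 33 TGF-beta and BMP genes ID1 rose and 1 was called lower. The BMP targets ID2 and ID3 stood at log2 fold changes of -0.03 and 0.30, and neither passed the test. SMAD6, of the same list, was at 1.03 without a call in edgeR, and the list's median was -0.03. DESeq2 called 2 genes of this list higher and 1 lower. Of 18 genes of the IL-6 family and STAT3, 3 rose: JAK1, its relative JAK2 (0.76 ± 0.18) and IL6ST (0.56 ± 0.16), the shared gp130 receptor chain. IL6ST stood at 53.5, 39.8, 50.7 and 24.7 CPM in vehicle and at 62.1, 62.7, 64.9 and 59.7 CPM in compressed libraries. Here vehicle replicate 4 was again the lowest, and without it IL6ST and JAK2 lost their calls (adjusted p = 0.302 and 0.0896). The target SOCS3 and the cytokine LIF were at 0.11 and -0.08, without a call. Of 25 growth factor genes, 2 rose: HBEGF, a ligand of the EGF receptor, from 14.7, 11.01, 14.8 and 15.5 CPM to 17.1, 26.2, 32.1 and 22.2 CPM, and CTHRC1, a secreted matrix protein (1.07 ± 0.18). Of 28 WNT genes the ligand WNT9A rose by 1.19 ± 0.26 on the log2 scale, and its call was lost without vehicle replicate 4 (adjusted p = 0.0526). The HBEGF call was lost without compressed replicate 2.

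The matrix genes of cartilage moved in both directions. Of 30 tested cartilage matrix genes, 2 rose and 2 fell (13.3%, against 2.18% of all genes tested), and the median log2 fold change was 0.01. The higher genes were COL9A3, a chain of collagen IX on the surface of collagen II fibrils, at 19.3, 21.3, 18.2 and 17.3 CPM in vehicle and 26.1, 26.0, 38.3 and 29.4 CPM in compressed libraries, and SOX6, a transcription factor that works with SOX9 in cartilage (0.49 ± 0.10). The lower genes were CILP and DCN. DCN encodes decorin, a small proteoglycan that binds collagen fibrils, and was at 1500.1, 1525, 1645 and 1671 CPM in vehicle and 1325, 1157, 1276 and 1156 CPM in compressed libraries. Its fall of 0.37 ± 0.07 on the log2 scale (edgeR adjusted p = 0.00217) kept the 2 groups apart. The main structural genes did not pass the test: COL2A1 was at 0.12, ACAN at 0.14, COMP at -0.14 and PRG4, the lubricin gene, at 0.19. Among 25 matrix-degrading enzymes and inhibitors SERPINE2, an inhibitor of thrombin and other serine proteases, rose from 526, 516, 547 and 306 CPM to 773, 923, 841 and 781 CPM, and 1 was called lower. MMP13 and ADAMTS5, the enzymes best known for breaking down collagen II and aggrecan, were at 0.60 and 0.66 and uncalled. HYAL2, a hyaluronidase, was the only call of 11 hyaluronan genes (1.23 ± 0.19). Among 12 fibroblast markers POSTN, the periostin gene, fell by 0.50 on the log2 scale. COL9A3 was at adjusted p = 0.0501 without vehicle replicate 4, and POSTN lost its call without compressed replicate 2. In bulk RNA, fewer cells of a type and less RNA per cell cannot be told apart.

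Stress and lipid lists held XBP1 and a few other calls. Of 20 unfolded protein response genes XBP1 and CRELD2 rose, by 1.28 and 1.72 on the log2 scale, and MANF fell by 0.27 (15% called, against 2.18% of all genes tested), with a list median of -0.04. CRELD2, an ER protein induced by misfolded matrix proteins, went from 2.84, 6.25, 5.06 and 4.12 CPM to 12.4, 18.9, 13.5 and 15.6 CPM. HSPA5, the main ER chaperone, was at -0.14 and DNAJB9, an established XBP1 target, at -0.16, both uncalled. Of 26 integrated stress response genes TRIB3, a pseudokinase induced by ATF4 and CHOP, rose from 45.7, 42.9, 61.3 and 47.5 CPM to 84.8, 97.9, 121 and 96.2 CPM, and WARS1 fell by 0.25. The list's median was -0.08, and ATF4, DDIT3 and ASNS were at -0.17, -0.50 and -0.19 without a call. Of 28 cholesterol and fatty acid synthesis genes, 2 rose, and 24 had a positive log2 fold change, with a median of 0.16. MVD (chromosome 6: 1008100 to 1014303), an enzyme of the mevalonate pathway, went from 20.1, 20.2, 22.0 and 20.2 CPM to 71.5, 127, 82.1 and 67.1 CPM (2.08 ± 0.22, edgeR adjusted p = 6.18e-08). INSIG1, which holds the sterol sensor SCAP in the ER, rose by 0.76 ± 0.17, while HMGCS1 and SQLE were at 0.15 and 0.03. EIF2AK2, the RNA-sensing kinase PKR, was the only call of 30 interferon-stimulated genes (0.63 ± 0.12). COX4I1 was the only edgeR call of 22 respiratory chain genes (-0.36 ± 0.09), and DESeq2 called 2 lower. Of the 22, 18 were negative, with a median of -0.12. Without vehicle replicate 4, 15 were negative, with a median of -0.03. MANF, WARS1, INSIG1 and COX4I1 lost their calls without vehicle replicate 4, with adjusted p = 0.291, 0.319, 0.0612 and 0.265. Without compressed replicate 2 the calls of MANF, WARS1, COX4I1 and IL6ST were lost.

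Cytosolic ribosomal protein genes, the building blocks of the ribosome, made up 23 of the 155 falls. They were called lower in 31.5% of cases, against 0.833% of all genes tested. Of 73 tested, 71 had a negative log2 fold change, with a median of -0.26, 23 were called lower and 1, RPL13, higher. RPS3A stood at 2542, 2810.1, 2509 and 3262 CPM in vehicle and 2214, 2267, 2014 and 2287 CPM in compressed libraries, a log2 fold change of -0.34 ± 0.07. RPL13, in contrast, went from 90.1, 99.7, 90.9 and 120 CPM to 172, 309, 153 and 166 CPM. Vehicle replicate 4 was the highest library for RPS3A. Without it none of the 73 was called lower, RPL13 stayed higher, and the median was -0.17. Their summed share of counts was 7.85% ± 0.386 (SD, n = 4) in compressed and 9.03% ± 1.03 (n = 4) in vehicle libraries (exact two-sided permutation p = 0.0857, smallest possible 0.0286, Benjamini-Hochberg adjusted over 3 library measures 0.129). The 100 most abundant genes took 27.8% ± 0.242 and 29.1% ± 1.02 (exact permutation p = 0.0286, adjusted 0.0858), and mitochondrial mRNA 0.526% ± 0.0368 and 0.482% ± 0.0667 (exact permutation p = 0.343, adjusted 0.343). The part of these library shares in the result was not tested. Ribosomal protein genes have many near-identical copies, so their counts are uncertain.

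No gene was called by edgeR in the lists of NF-kB and inflammatory genes (32 tested, 3 at unadjusted p under 0.05, 2 called higher by DESeq2), heat shock genes (18, 4 and 0), NRF2 genes (22, 3 and 0), p53 and apoptosis genes (22, 0 and 0) and cell cycle genes (29, 2 and 0). The same held for hypoxia and glycolysis genes, where DESeq2 called 3 of 32 lower, and for hypertrophy and bone markers, where it called 1 of 18 in each direction. Circadian clock genes (18 tested), PI3K, FOXO and autophagy genes (21) and mitochondrially encoded genes (13) had no call by either tool, with 2, 2 and 0 at unadjusted p under 0.05. Of 8 aryl hydrocarbon receptor genes DESeq2 called 1 and edgeR none, with 2 at unadjusted p under 0.05. Over all 18611 genes tested edgeR called 2.18%, and 2280 had an unadjusted p under 0.05. At that share of calls, lists this short can hold no call, so its absence does not set these lists apart. SOD2, the gene with the highest CPM in the NF-kB list, stood at 762 to 911 CPM in vehicle and 783 to 843 CPM in compressed libraries. PCNA, a clamp for DNA polymerases and the cell cycle gene with the highest CPM, was at 160 to 194 and 182 to 205 CPM. Of the tested leukocyte (8), endothelial and mural (8) and adipocyte and erythroid (4) markers none was called by either tool or had an unadjusted p under 0.05.

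**Figure D3:**
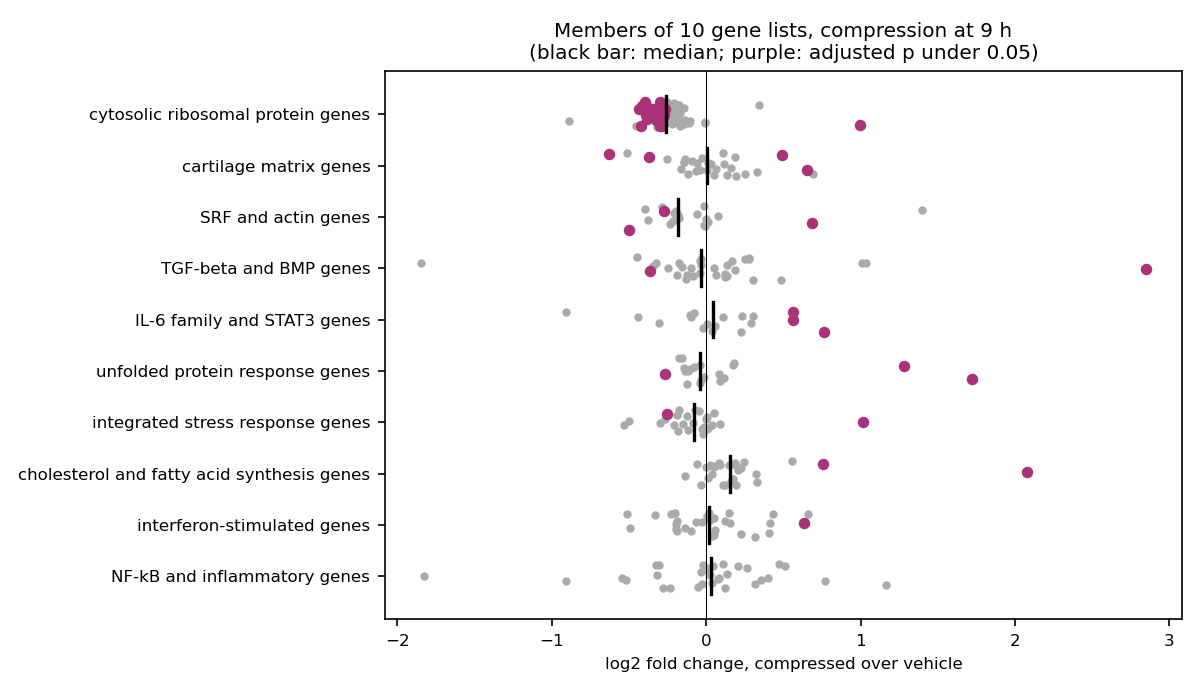
Log2 fold change of compressed over vehicle for each tested member of 10 gene lists; grey points are members with an adjusted p of 0.05 or above, purple points are called members and the black bar is the list's median. The ribosomal protein genes lie almost all left of 0 (median -0.26) with RPL13 alone on the far right. In the other lists the medians run from -0.18 to 0.16. Some called members, such as TPM1, WARS1 and DCN, lie among uncalled ones, and the NF-kB list has no called member.

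The same compression was applied to cells without PIEZO1 siRNA. With siNTC 1196 genes were called at 9 h (6.43%; 516 higher, 2.77%, and 680 lower, 3.65%), and with NT 653 (3.51%; 400 higher, 2.15%, and 253 lower, 1.36%). Those comparisons share no library with the siPIEZO1 one. Of the 250 siPIEZO1 rises 47 were also called higher with siNTC (18.8% of the siPIEZO1 rises and 9.11% of the siNTC rises), and 34 with NT (13.6% and 8.50%). Of the 155 falls 33 were also called lower with siNTC (21.3% and 4.85%) and 17 with NT (11% and 6.72%). In the opposite direction 2 of the rises and 1 of the falls were called with siNTC, and 0 and 1 with NT. The median log2 fold change of the 250 rises was 0.25 with siNTC and 0.20 with NT, against 0.035 and 0.0042 over all genes tested. Genes called in both siPIEZO1 and siNTC included MVD (0.73 with siNTC), DOHH (1.24), TMEM47 (1.56), DCN (-0.39), TAGLN (-0.45) and CCN2 (-0.52).

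The difference between the effects was tested directly. The compression effect was larger or less negative in siPIEZO1 than in siNTC cells for 186 genes (0.999%) and the reverse for 16 (0.086%), together 1.09% of those tested. Against NT the counts were 71 (0.381%) and 30 (0.161%), together 0.543%. XBP1 was not called with compression in siNTC (-0.03) or NT cells (-0.02), and the difference was 1.31 against siNTC (edgeR adjusted p = 1.45e-05) and 1.30 against NT (adjusted p = 1.87e-05). EIF5 was at 0.05 with siNTC and -0.01 with NT, NOL7 at -0.05 and 0.01, JAK1 at 0.04 and 0.04, and SPART at -0.23 and -0.06, and for each the difference passed the test against both. ID1 was at 0.65 with siNTC and 0.77 with NT, so it moved the same way but less, and the difference of 2.20 against siNTC passed (adjusted p = 4.96e-05). SPINT2 (difference 1.25) and ITFG1 (1.27) were among the clearest against NT. In the other direction PCSK4 (-0.79), NDUFA11 (-0.71), COX4I1 (-0.53), ARPC5L (-0.52) and PSMD9 (-0.52) had a lower effect than with siNTC, and GAL3ST1 (-3.48), CKB (-0.82), LCN2 (-0.61), GFPT2 (-0.58) and FBXO6 (-0.55) a lower effect than with NT. The count against siNTC rested on few libraries: it was 60 without siNTC vehicle replicate 3, 64 without siPIEZO1 vehicle replicate 4, 65 without siNTC compressed replicate 3 and 357 without siNTC compressed replicate 1, and 44 (42 higher, 2 lower) when only the 16 libraries of the contrast were fitted. All 5 genes named as lower than with siNTC lost their calls in that last fit, with adjusted p from 0.0562 to 0.128. PCSK4, NDUFA11, ARPC5L and COX4I1 also lost theirs without siPIEZO1 vehicle replicate 4, with adjusted p from 0.0756 to 0.117.

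**Figure D4:**
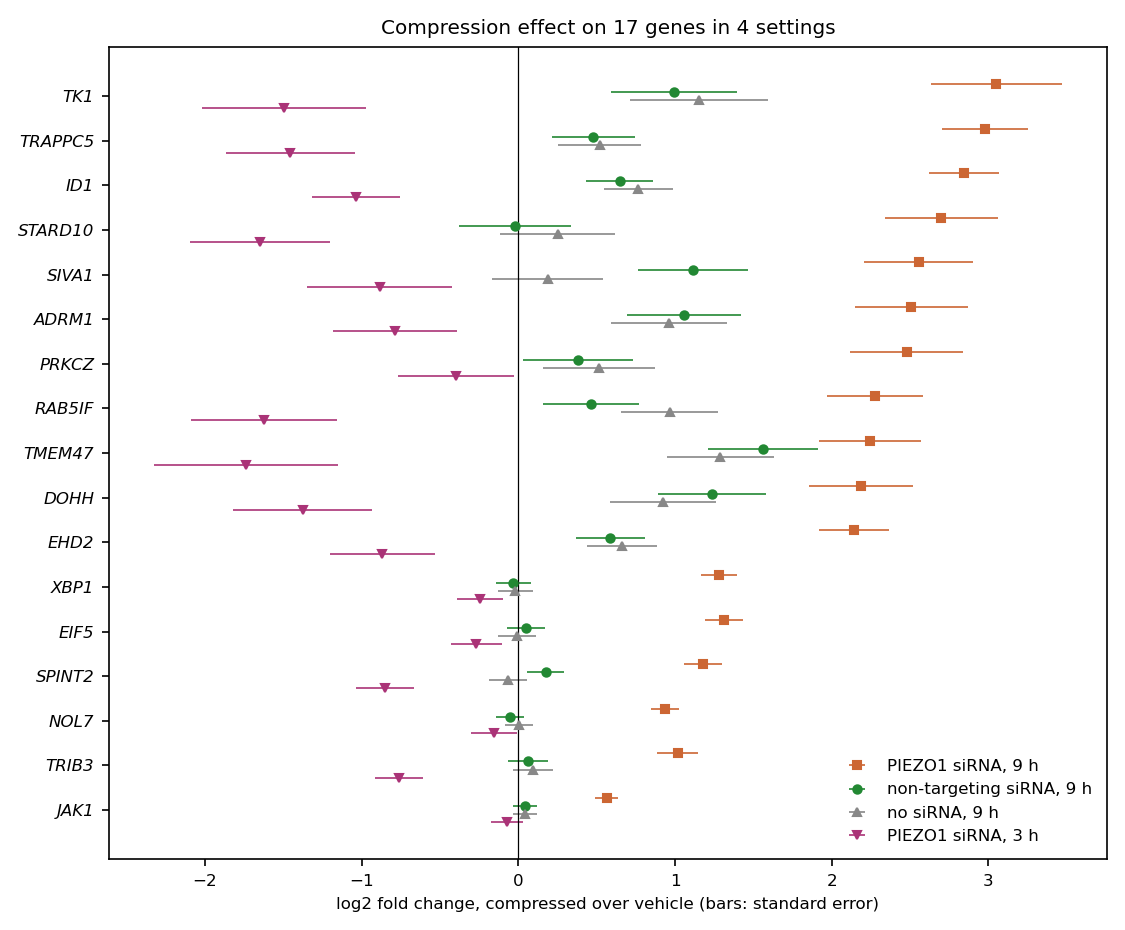
Log2 fold change of compressed over vehicle with its standard error (bars) for 17 genes in 4 settings: siPIEZO1 at 9 h, siNTC at 9 h, NT at 9 h and siPIEZO1 at 3 h. The siPIEZO1 9 h points lie farthest to the right for every gene, which follows in part from choosing genes called higher there. The siPIEZO1 3 h points lie at or left of 0, as for ID1 (2.85 at 9 h and -1.04 at 3 h).

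At 3 h fewer genes were called in siPIEZO1 cells, and most of the later rises had the opposite sign, mostly without a call. Most of the later falls kept their sign, also mostly without a call. There, 110 of 18330 genes were called (0.6%; 72 higher, 0.393%, and 38 lower, 0.207%), and 1 of the 250 later rises, RUNX1, and 1 of the 155 later falls, HMGB2, were among them in the same direction. Of the 250, 6 were called in the opposite direction at 3 h, including SPINT2 (-0.85 at 3 h) and TRIB3 (-0.76). RYR2, at 0.52 at 3 h and -0.57 at 9 h, was the only later fall called in the opposite direction at 3 h. Among the 250 rises 194 had a negative log2 fold change at 3 h, with a median of -0.24, where 48.8% of all genes tested were positive. Of the 154 later falls tested at 3 h, 122 were negative, with a median of -0.17, so both sets leaned negative there. Vehicle replicate 1 at 3 h stood apart in its share of ribosomal protein counts, 11.43% against 7.23% to 8.03% in the other 3 vehicle libraries. Without it 111 genes were called, 205 of the 250 rises were negative, with a median of -0.33, and 21 were called lower, while RYR2 and HMGB2 lost their 3 h calls (adjusted p = 0.0761 and 0.0723). Over the 8 fits that each left out 1 library of the 3 h contrast, 174 to 205 of the 250 were negative. The number called in the opposite direction ranged from 0 to 21 and was 0 without vehicle replicate 2 or 3 or compressed replicate 4. The 3 h total fell to 25 without compressed replicate 3, 28 without compressed replicate 4 and 47 without vehicle replicate 3, and was 71 without compressed replicate 2. The 9 h effect exceeded the 3 h effect for 196 genes (0.97%) and fell below it for 73 (0.361%), together 1.33% of 20202 tested. The clearest were ID1 (a difference of 3.88), TRAPPC5 (4.43), SPINT2 (2.02), TRIB3 (1.77) and XBP1 (1.52). TLE3 (-1.02), APOLD1 (-2.14), TXNRD1 (-0.75) and HK2, a hexokinase (-0.90), were among the clearest in the other direction, and each of these 4 was called higher at 3 h. RUNX1 and HMGB2 were picked after their values were seen.

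The levels across the 9 groups at 9 h were highest in the compressed siPIEZO1 libraries for many of the rises. For 81 of the 250 rises all 4 compressed libraries were above all 32 other libraries at 9 h, which held for 109 of all genes tested, and for 14 of the 155 falls all 4 were below, which held for 31 of all genes tested. These counts are a description, with no test. ID1 was at a mean of 7.98 CPM in NT vehicle, 14.4 in siNTC vehicle and 26.4 in siPIEZO1 vehicle, at 13.5 and 22.6 in the compressed NT and siNTC groups, and at 190.0 in compressed siPIEZO1. The siPIEZO1 vehicle level was already above siNTC vehicle (log2 0.87 ± 0.21, edgeR adjusted p = 0.00588), and in compressed constructs the difference was 3.07 ± 0.23. DCN was at 7924 CPM in NT vehicle, 4341 in siNTC vehicle and 1585 in siPIEZO1 vehicle, and its log2 fold change of siPIEZO1 over siNTC in vehicle was -1.45 ± 0.07. Such baseline differences were common: between siPIEZO1 and siNTC 2017 genes were called in vehicle (10.8%; 895 higher, 4.81%, and 1122 lower, 6.03%) and 1091 in compressed constructs (5.86%; 643 higher, 3.45%, and 448 lower, 2.41%). Of 30 interferon-stimulated genes 20 were higher in siPIEZO1 than in siNTC vehicle, with a median of 1.05, against 0.02 over all genes tested. The part of these baseline differences in the compression effects was not tested.

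Yoda1 at 9 h gave the second highest siPIEZO1 level for many of the same genes, and the libraries were widely spread for several. For each of the 11 largest rises described above the siPIEZO1 Yoda1 group was the second highest of the 9 groups. ID1 was at 48.4, 66.2, 114 and 32.4 CPM and TRAPPC5 at 36.4, 48.8, 77.0 and 13.5 CPM in the 4 Yoda1 libraries, with the same library, replicate 3, highest and the same, replicate 4, lowest. EIF5 was at 211, 248, 327 and 166 CPM and XBP1 at 129, 165, 201 and 109 CPM, in the same order. Compressed and Yoda1 siPIEZO1 libraries differed for 188 genes, 1.01%, with 112 higher (0.602%) and 76 lower (0.408%) in compressed. XBP1 (0.91), NOL7 (0.69), ID1 (1.54) and BANP (1.63), all on the log2 scale, were higher in compressed than in Yoda1 libraries, and RCAN1 (-0.43), RBMS3 (-0.66), GALNT18 (-0.57), ENPP4 (-0.88) and the zinc transporter SLC39A14 (-0.33) were lower. BANP was at 2.48 CPM with Yoda1 and 2.88 CPM with vehicle. This contrast was added after the data were seen, and its count was 66 without compressed replicate 2 and 67 without Yoda1 replicate 4.

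**Figure D5:**
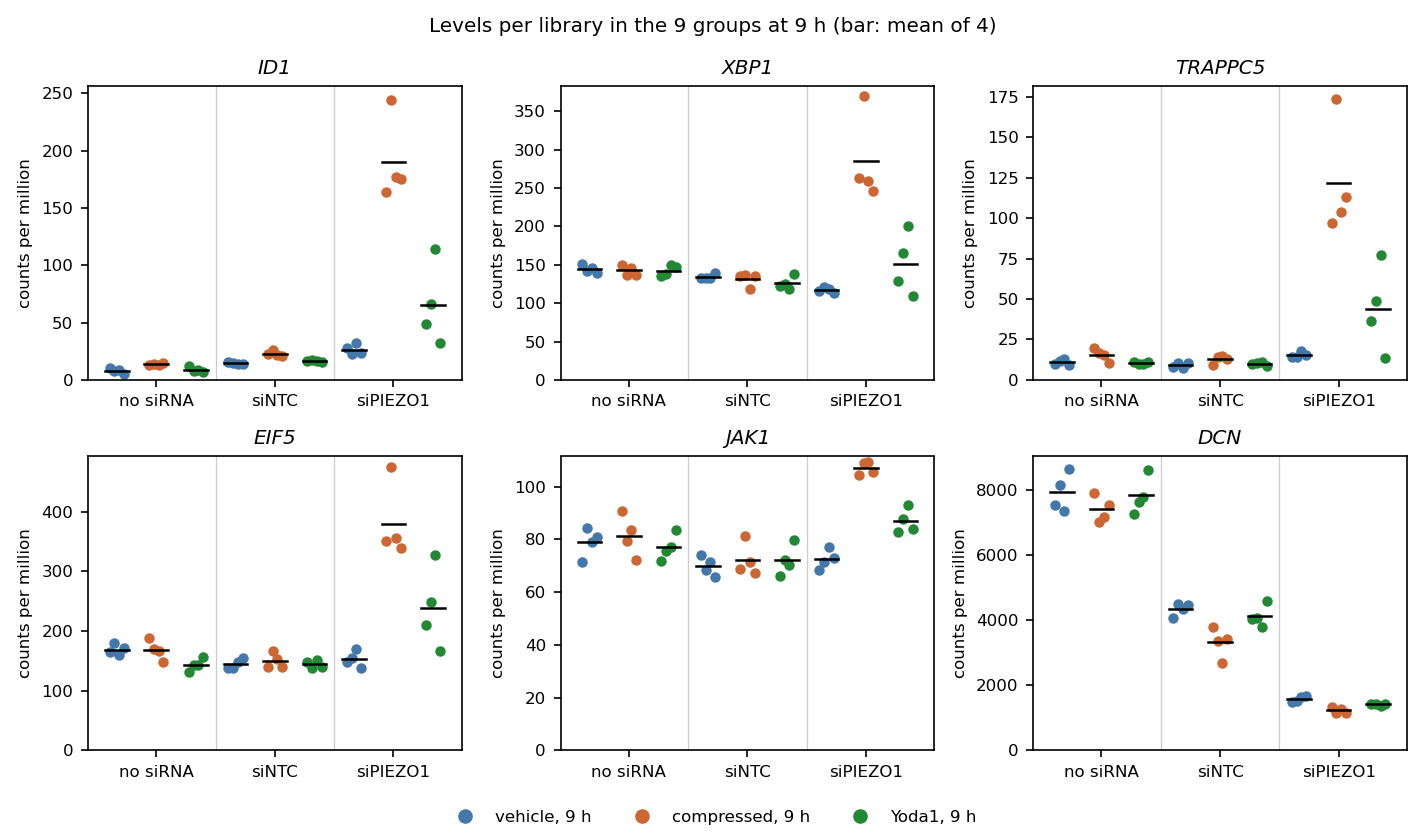
CPM (linear axis from 0) in each library of the 9 groups of the PIEZO1 experiment at 9 h for ID1, XBP1, TRAPPC5, EIF5, JAK1 and DCN; points are libraries and the bar is the mean of 4. Compressed siPIEZO1 libraries are the highest for the first 5 genes, the Yoda1 siPIEZO1 libraries are widely spread for ID1, TRAPPC5, EIF5 and XBP1 and close together for JAK1 (82.7 to 93.0 CPM), and DCN differs most by siRNA.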

How the data were processed

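RNA was measured by paired-end sequencing of low-input cDNA libraries. The submitters' processing notes name Trim Galore, STAR, HTSeq and the build Sscrofa11.1, without versions, order or strand setting. The library kit does not mark strand, so overlapping antisense genes cannot be told apart. The deposited table holds whole-number counts per gene, as made by the authors. It has 32388 lines for 31907 gene identifiers, and 481 repeated lines were removed. Symbols came from the table (16681), the gene name table (822) and RefSeq (787), and 1305 identifiers that share a symbol kept their identifier.

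Counts were fitted with edgeR 4.0.16 in R 4.3.3 (limma 3.58.1): TMM scaling, filterByExpr with a minimum count of 10, 1 term per group and the quasi-likelihood test, over all 36 libraries of the PIEZO1 experiment at 9 h (18611 genes), all 36 at 3 h (18330) or all 72 for the difference between times (20202). The groups share 1 estimate of the spread. Genes were called at a Benjamini-Hochberg adjusted p under 0.05 over all genes tested. CPM are TMM-scaled, so 3 h and 9 h levels were scaled separately. In simulated counts with 3 false calls the test recovered 48 of 100 genes changed by 1 log2 unit and 17 of 100 changed by 0.5 in the compression contrast at 9 h. Those counts were drawn for each gene separately and held no outlying library such as vehicle replicate 4. The number of false calls in them therefore cannot be carried over to the real libraries.

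Named genes are the 12 largest rises and falls among called genes with a symbol (no small or ribosomal RNA and no pseudogene) whose groups do not overlap and whose higher group has a mean of at least 5 CPM, up to 4 called members of each list, 5 genes per direction of each difference, and PIEZO1, PIEZO2 and TRPV4; other list members are given as values and were picked as known pathway genes. Some genes that met these rules are not reported here. The members and lists were chosen with earlier results of these data known. The shares of calls held in common with other comparisons and the Yoda1 contrast were added after the values were seen. Alternatives were DESeq2 1.42.0, RLE scaling, no filter, only the libraries of a contrast, a replicate block, and leaving out each library. The 48 libraries of the TRPV4 and IL-1 experiments were not used here. Same-numbered libraries were not taken as pairs.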

Additional observations from a re-analysis of the deposited data

Results flagged for a closer look

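Outlying libraries were sought in 118 groups of 4 values, and 9 were found, where chance gives about 1 in 20 groups. In each, 1 library lay apart from the other 3 by more of the group's range than Dixon's 95% critical value allows. In compressed libraries these were ID1 at 244 CPM, KCNN4 at 14.7 and XBP1 at 370 in replicate 2, PHLDA1 at 276 in replicate 1, and MT1A at 11.8 in replicate 3. In vehicle libraries they were PCSK4 at 58.9 CPM and SERPINE2 at 306 in replicate 4, MVD at 22.0 in replicate 3, and the share of small RNA counts, 0.0209% in replicate 3.

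Compression effects that differed between settings were found by the edgeR test of the difference itself, on the log2 scale. Against siNTC the siPIEZO1 effect was higher for XBP1 (1.31), NOL7 (0.98), EIF5 (1.26), SPART (1.09) and ID1 (2.20) and lower for PSMD9 (-0.52), PCSK4 (-0.79), NDUFA11 (-0.71), ARPC5L (-0.52) and COX4I1 (-0.53). The 5 lower genes lost their calls with only the libraries of the contrast, and all but PSMD9 lost them without siPIEZO1 vehicle replicate 4. Against NT it was higher for XBP1 (1.30), EIF5 (1.32), SPINT2 (1.25), NOL7 (0.93) and ITFG1 (1.27) and lower for GFPT2 (-0.58), LCN2 (-0.61), CKB (-0.82), FBXO6 (-0.55) and GAL3ST1 (-3.48). At 9 h it was above the 3 h effect for ID1 (3.88), SPINT2 (2.02), TRIB3 (1.77), TRAPPC5 (4.43) and XBP1 (1.52) and below it for TLE3 (-1.02), APOLD1 (-2.14), TXNRD1 (-0.75) and HK2 (-0.90). GAL3ST1 stood at 19.9, 17.9, 24.4 and 3.02 CPM in siPIEZO1 vehicle libraries.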

How the results depend on the processing

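Among 52 genes called in the compression contrast at 9 h and named for their size or their list, ribosomal protein genes not counted, none reversed under the alternatives run. All 52 stayed called with a replicate block, 15 lost the call without vehicle replicate 4, 21 in some leave-one-out fit and 13 under some other alternative. The count of 405 was 694 by DESeq2 and 194 to 463 on leaving out single libraries, lowest without siPIEZO1 vehicle replicate 4. The siPIEZO1 minus siNTC count of 202 was 478 by DESeq2, 44 with only the libraries of the contrast and 60 to 357 on leaving out single libraries. Of the 10 genes named for it, 4 lost the call without siPIEZO1 vehicle replicate 4 and 5 under some other alternative. The siPIEZO1 minus NT count of 71 higher and 30 lower genes was 288 by DESeq2 and 56 to 127 on leaving out single libraries, and the 9 h minus 3 h count of 269 was 124 with only the libraries of the contrast and 177 to 360. The 3 h count of 110 was 25 to 117 on leaving out single libraries, in fits added after the data were seen. The siPIEZO1 against siNTC count was 1313 with only the libraries of the contrast and 1261 to 2039 in vehicle, and 781 to 929 in compressed libraries. The Yoda1 count of 188 was 559 by DESeq2 and 66 to 232. DESeq2 differs in its scaling, filter and spread estimate. With RLE scaling in edgeR the compression contrast at 9 h had 439 calls, 236 higher and 203 lower. The cause of the shifts, those with DESeq2 included, was not tested. With the replicate block the counts were 574, 282, 140, 319, 1247 (compressed siPIEZO1 against siNTC), 2290 (vehicle) and 265 (Yoda1), and the vehicle PIEZO1 value passed at adjusted p = 0.0410. Same-numbered siPIEZO1 libraries correlated at -0.00294 to 0.0912, and 2 of 4 compressed libraries correlated best with their own number, so the numbers were not taken as pairing. Depth limits what can be said of PIEZO1, at 104 to 269 counts per library.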
